A study of Mus musculus with 4 samples.

Results

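The genes described here are 10 markers of primitive and parietal endoderm together with the basement membrane proteins those cells secrete, taken by symbol from a table of 22266 genes. They are the transcription factor gene Hnf4a, the endocytic adaptor gene Dab2, the receptor gene Pdgfra, the apolipoprotein gene Apoe, the laminin chain genes Lama1, Lamb1 and Lamc1, the collagen IV chain genes Col4a1 and Col4a2, and Sparc. Poly(A) RNA was sequenced from female PGK12.1 mouse embryonic stem cells, grown on gelatin in serum with leukemia inhibitory factor, whose Cbx2 alleles are floxed and tagged with HaloTag. The knockout group (n = 2, day 2) received 1.0 µM 4-hydroxytamoxifen (4-OHT) for 48 hours, and the control group (n = 2, day 0) received ethanol (EtOH) and is labelled wild type. All 4 libraries are labelled batch 2, both groups carry the same modified Cbx2 alleles, and no library here joins 4-OHT with intact Cbx2, so drug, time in culture and deletion cannot be told apart. The labels call the line mESC CBX2fl/fl-HaloTag, do not name the recombinase, and do not say whether the replicates came from separate cultures, so a p-value measures only the spread between these libraries, which may be technical.

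Primitive endoderm is the extraembryonic lineage that separates from the pluripotent epiblast in the blastocyst and gives rise to visceral and parietal endoderm. Parietal endoderm lays down Reichert's membrane, a thick basement membrane rich in laminin, collagen IV and SPARC. Laminin is a trimer of an α, a β and a γ chain that must assemble inside the cell, collagen IV is a trimer built mainly from its α1 and α2 chains, and nidogens and perlecan tie the laminin and collagen networks together. Cultures of embryonic stem cells in serum are known to hold some cells with primitive endoderm features, and stem cells themselves also make basement membrane proteins.

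The authors gave expression as transcript shares corrected for length (TPM), a unit that lets genes be set side by side; since TPM keeps no read numbers, the depth of the libraries is unknown. Cbx2 stood at 0.749 and 1.14 TPM in the 4-OHT libraries, against 2.29 and 2.71 TPM in the EtOH libraries, and both 4-OHT values lay below both EtOH values, in the direction of the labels. With limma on log2(TPM + 1), the 12029 genes whose mean reached 1 TPM were tested, and 5 of them (0.0416%) had a Benjamini-Hochberg adjusted p under 0.05. Cbx2 itself was not among them (log2 fold change -0.85, SE 0.19, limma adjusted p = 0.265). Missing the threshold therefore does not show that a gene was unchanged. Embryonic stem cell markers were abundant, with Pou5f1 at 2229 and 2106 TPM in the 4-OHT libraries, against 1856 and 1862 TPM in the EtOH libraries. The 4-OHT libraries lay further apart (their log2 difference had an SD of 0.35 over tested genes) than the EtOH libraries (SD 0.18), and that difference grew with transcript length, which bears on the long laminin and collagen IV genes below.

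None of the 10 genes passed the threshold. Of the 9 tested, all but Pdgfra, 2 had an unadjusted p under 0.05 in the higher direction, Hnf4a and Apoe, and none in the lower direction, where the shares over all genes were 6.02% and 4.46%. The 4-OHT libraries were both above the EtOH pair for 4 of the 9 (Hnf4a, Apoe, Col4a2 and Sparc), against 23.1% of all genes tested, and below for none, against 19.4%. The median log2 fold change of the 9 was 0.16, beside 0.02 for all genes tested. Against the EtOH mean, 4-OHT replicate 1 had a median of 0.04 over the 9 genes and -0.09 over all genes tested. In 4-OHT replicate 2 these medians were 0.36 and 0.14.

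**Figure D1:**
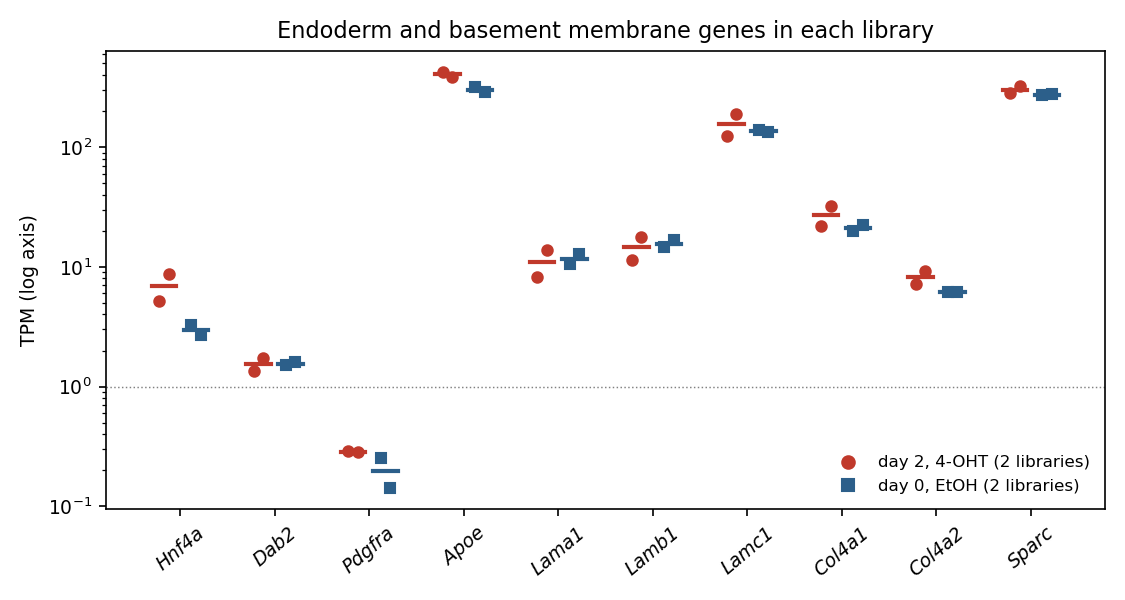
TPM of each of the 10 genes (log axis) in the 2 day 2 4-OHT libraries (circles) and the 2 day 0 EtOH libraries (squares), with bars at the group means; the dotted line marks 1 TPM. Hnf4a and Apoe separate the groups, the laminin chains overlap, and Pdgfra lies under 1 TPM in every library.

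The 10 genes spanned a wide range of levels. In the 4-OHT libraries the order of mean TPM was Apoe (407), Sparc (301), Lamc1 (156), Col4a1 (26.9), Lamb1 (14.7), Lama1 (11.0), Col4a2 (8.19), Hnf4a (6.97), Dab2 (1.55) and Pdgfra (0.287). The EtOH libraries gave the same order, with means of 302, 274, 136, 21.1, 15.6, 11.7, 6.14, 2.98, 1.56 and 0.198 TPM. Within the 4-OHT group, the ranges of Lamb1 and Lama1, of Lama1 and Col4a2, and of Col4a2 and Hnf4a overlapped, while no neighbours overlapped within the EtOH group. Taken library by library, the 10 genes stood in this same order in all 4 libraries. Apoe stood at the 98.5th and 98.3rd percentile of all listed genes in the 4-OHT libraries and at the 97.8th and 97.6th in the EtOH libraries, so this endoderm marker was among the most abundant mRNAs of these stem cell cultures.

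Among the lineage regulators, Hnf4a showed the largest difference of the 9. It encodes a nuclear receptor of visceral endoderm and liver that drives apolipoprotein and other secretory genes. Hnf4a (ENSMUSG00000017950.17, GRCm38 chromosome 2, 163506808 to 163572910, plus strand, protein-coding) stood at 5.15 and 8.79 TPM in the 4-OHT libraries, against 3.29 and 2.68 TPM in the EtOH libraries. Both 4-OHT values were higher than both EtOH values, and the 4-OHT pair was itself widely spread (6.97 ± 2.57 TPM, against 2.98 ± 0.431 TPM with EtOH; SD, n = 2 each). The log2 fold change was 0.97 (SE 0.27, 95% interval 0.32 to 1.62), with a limma adjusted p of 0.321 over all genes, so it did not pass. In bulk RNA, more cells of a type and more RNA per cell cannot be told apart. Hnf4a passed when 4-OHT replicate 1 (adjusted p = 0.00923) or replicate 2 (0.0406) was left out, fits that take the spread of the single 4-OHT library from the EtOH pair and in which 24.6% and 20.6% of all genes passed. With EtOH replicate 1 or 2 left out, its adjusted p was 0.957 and 1. The size of the change depends on the pseudocount at this level, with 1.16 at a pseudocount of 0.1 and 0.57 at 5. The span of the antisense gene Hnf4aos overlaps that of Hnf4a in the annotation, and the labels do not state that strand was kept. Whether reads of Hnf4aos add to the Hnf4a value was not tested. Antisense genes overlap the spans of Dab2, Pdgfra, Col4a1 and Col4a2 as well.

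Hnf4a is transcribed from a pair of promoters, and the gene-level TPM does not separate them. Their windows in RefSeq (GRCm38.p6), each from 250 bases before to 50 bases after a start and both on the plus strand, are shown because this gene carries the largest change. The capitals mark AGATAA, the core motif of GATA factors, which act upstream in primitive endoderm. The windows are chr2:163506607-163506906 (upstream start) and chr2:163546905-163547204 (downstream start, 40298 bases further on).
Hnf4a upstream start: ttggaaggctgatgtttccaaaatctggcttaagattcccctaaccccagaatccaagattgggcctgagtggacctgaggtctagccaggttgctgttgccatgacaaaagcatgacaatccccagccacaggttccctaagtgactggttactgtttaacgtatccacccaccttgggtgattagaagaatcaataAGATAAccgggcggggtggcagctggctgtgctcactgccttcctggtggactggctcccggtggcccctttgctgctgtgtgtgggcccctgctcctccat
Hnf4a downstream start: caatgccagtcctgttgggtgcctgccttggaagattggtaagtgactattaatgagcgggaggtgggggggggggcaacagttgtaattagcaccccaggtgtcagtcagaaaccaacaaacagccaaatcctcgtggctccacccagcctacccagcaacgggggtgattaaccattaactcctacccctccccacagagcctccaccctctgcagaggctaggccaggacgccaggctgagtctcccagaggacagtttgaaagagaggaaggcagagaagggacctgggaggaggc
The match lies 52 bases before the upstream RefSeq start, and the downstream window holds none on either strand. The gene span given above begins at 163506808, also inside the upstream window, so this distance depends on the annotation. Of all 32851 promoter windows in the table, 11.2% hold AGATAA on at least 1 strand. The 8 of the 10 genes with an entry have 12 windows, of which 2 hold it, in Hnf4a and Dab2. Lama1 and Lamc1 had no entry. A match is a description of the letters, not a measured site.

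Genes that HNF4A is known to drive in liver and visceral endoderm were mostly near 0. Of 17 listed, 16 had an entry, and 3 were expressed enough to test. None of the 3 passed limma at an adjusted p of 0.05 and none had an unadjusted p under 0.05. With either 4-OHT library left out, 1 of the 3 passed; over all genes these fits called 24.6% without replicate 1 and 20.6% without replicate 2, the background for such counts in each list that follows. Rbp4, the retinol carrier gene, stood at 2.74 and 1.30 TPM with 4-OHT, against 1.44 and 0.844 TPM with EtOH, and Mttp, which loads lipid onto lipoproteins, had a log2 fold change of 0.11 (SE 0.18). Ttr, Apoc3, F10, G6pc, Cyp7a1 and Fgb were listed at 0 in all 4 libraries.

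Dab2 and Pdgfra, surface and endocytic markers of primitive endoderm, were low and did not separate the groups past the threshold. Dab2 encodes a clathrin adaptor that visceral endoderm needs for uptake through megalin and cubilin. It (ENSMUSG00000022150.17, chromosome 15, 6299788 to 6440712, plus strand) stood at 1.35 and 1.74 TPM with 4-OHT, against 1.51 and 1.60 TPM with EtOH. The 4-OHT values lay on either side of the EtOH pair, and the log2 fold change was -0.01 (SE 0.17, 95% interval -0.43 to 0.41, limma adjusted p = 0.990). Its sign turned without 4-OHT replicate 1 (0.10), without EtOH replicate 2 (0.02) and after removal of length and GC trends (0.0061). Pdgfra, the PDGF receptor that marks primitive endoderm from the blastocyst on, stood at 0.288 and 0.286 TPM with 4-OHT, against 0.254 and 0.143 TPM with EtOH (ENSMUSG00000029231.16, chromosome 5, 75152292 to 75198215, plus strand). Both 4-OHT values were above the EtOH pair, but the mean was under 1 TPM, so Pdgfra was not tested.

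The ligands of that receptor were more abundant than the receptor. Pdgfa, which signals through PDGFRA and is made by epiblast cells, stood at 89.5 and 84.6 TPM with 4-OHT, against 81.6 and 78.4 TPM with EtOH (log2 fold change 0.12, SE 0.10). Pdgfc stood at 15.2 and 19.7 TPM with 4-OHT, against 10.5 and 9.91 TPM with EtOH (log2 fold change 0.71, SE 0.18, limma adjusted p = 0.303). Pdgfb, at 1.66 and 1.20 TPM with 4-OHT against 0.711 and 0.795 TPM with EtOH, had a log2 fold change of 0.46 (SE 0.18). Of the 5 ligands and sister receptor listed, 3 were tested, none passed, and 2 reached an unadjusted p under 0.05, both higher. For all 3, both 4-OHT libraries were above the EtOH pair, beside 23.1% of all genes tested. An unadjusted p under 0.05 in the higher direction was held by 6.02% of all genes tested.

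Apoe encodes the lipid-carrying apolipoprotein E, which visceral endoderm and macrophages secrete. Apoe (ENSMUSG00000002985.17, chromosome 7, 19696109 to 19699188, minus strand, protein-coding) stood at 427 and 388 TPM in the 4-OHT libraries, against 314 and 289 TPM in the EtOH libraries. Both 4-OHT values were higher than both EtOH values, with means of 407 ± 27.5 and 302 ± 17.7 TPM (SD, n = 2 each) and a ratio of means of 1.35. The log2 fold change of 0.43 (SE 0.10, 95% interval 0.19 to 0.67) had a limma adjusted p of 0.267. It passed without 4-OHT replicate 1 (log2 fold change 0.36, adjusted p = 0.0169) and when replicate 2 was left out in its place (0.50, adjusted p = 0.00623), and in neither fit that left out an EtOH library (adjusted p = 1.00 and 1). Its longest transcript, of 1408 nt, is the shortest of the 10 genes, and with 4-OHT it was the only tested gene of the 9 whose replicate 2 lay below replicate 1.

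Apoc1, the small apolipoprotein gene beside Apoe in the same cluster, showed a difference of like size. It stood at 77.9 and 76.3 TPM with 4-OHT, against 56.8 and 51.3 TPM with EtOH (log2 fold change 0.51, SE 0.11, limma adjusted p = 0.265). The list of lipoprotein partners of Apoe and endocytic partners of Dab2 held 15 genes, of which 12 were tested and none passed; 4 reached an unadjusted p under 0.05, all higher, and the median log2 fold change was 0.30. The 4-OHT libraries were both above the EtOH pair for 4 of the 12 (23.1% of all genes tested) and both below for 1 (19.4%). The lipoprotein receptor gene Vldlr stood at 1.51 and 2.19 TPM with 4-OHT, against 0.776 and 0.590 TPM with EtOH (log2 fold change 0.75, SE 0.19). Its relative Lrp8, also a receptor for apolipoprotein E, stood at 3.02 and 3.72 TPM with 4-OHT, against 1.64 and 1.57 TPM with EtOH (0.74, SE 0.18). Without 4-OHT replicate 1, 6 of the 12 passed, and without 4-OHT replicate 2, 3 did.

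The laminin chains did not separate the groups. Lama1 encodes the α1 chain, whose end binds cell surface receptors. It (ENSMUSG00000032796.9, chromosome 17, 67697259 to 67822647, plus strand) stood at 8.20 and 13.7 TPM with 4-OHT, against 10.7 and 12.7 TPM with EtOH. Lamb1, which encodes the β1 chain (ENSMUSG00000002900.18, chromosome 12, 31265234 to 31329644, plus strand), stood at 11.5 and 17.9 TPM with 4-OHT, against 14.5 and 16.7 TPM with EtOH. Lamc1, which encodes the γ1 chain shared by most laminins (ENSMUSG00000026478.15, chromosome 1, 153218922 to 153332786, minus strand), stood at 125 and 187 TPM with 4-OHT, against 138 and 134 TPM with EtOH. For each of the 3 chains, 4-OHT replicate 1 was the lowest of the 4 libraries and 4-OHT replicate 2 the highest.

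The log2 fold changes were -0.12 for Lama1 (SE 0.26, 95% interval -0.75 to 0.52), -0.11 for Lamb1 (SE 0.23, -0.68 to 0.47) and 0.16 for Lamc1 (SE 0.19, -0.31 to 0.63). Their limma adjusted p-values were 0.917, 0.915 and 0.825, and the intervals leave room for changes of that width in either direction. The sign followed the 4-OHT library kept. Without 4-OHT replicate 1 the values were 0.22, 0.19 and 0.46, and Lamc1 passed (adjusted p = 0.00931). Without 4-OHT replicate 2 they were -0.46, -0.41 and -0.13, and none of the 3 passed (adjusted p = 0.0660, 0.0652 and 0.157).

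Within each library the 3 chains kept a fixed order, with Lamc1 far above the other chains. The ratio of Lamc1 to Lamb1 in TPM was 10.8 and 10.5 in the 4-OHT libraries, against 9.53 and 8.04 in the EtOH libraries. The ratio of Lama1 to Lamb1 was 0.713 and 0.767 with 4-OHT, against 0.734 and 0.760 with EtOH. The ratio of Lamc1 to Lamb1 did not overlap between the groups and that of Lama1 to Lamb1 did, and with 2 libraries a group the smallest two-sided p of an exact permutation test is 0.33. These ratios divide out whatever scales a whole library, though not an effect of length, which differs between the chains.

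Other laminin chains were measured beside these. The α5 chain gene Lama5, whose protein is common in stem cell and adult basement membranes, stood at 17.8 and 32.1 TPM with 4-OHT, against 19.6 and 22.5 TPM with EtOH, above Lama1 in every library. Lama2, Lama3 and Lama4 were under 1 TPM in every library. Among β chains, Lamb2 stood at 5.04 and 7.36 TPM with 4-OHT, against 7.44 and 7.43 TPM with EtOH, a log2 fold change of -0.25 (SE 0.22).

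**Figure D2:**
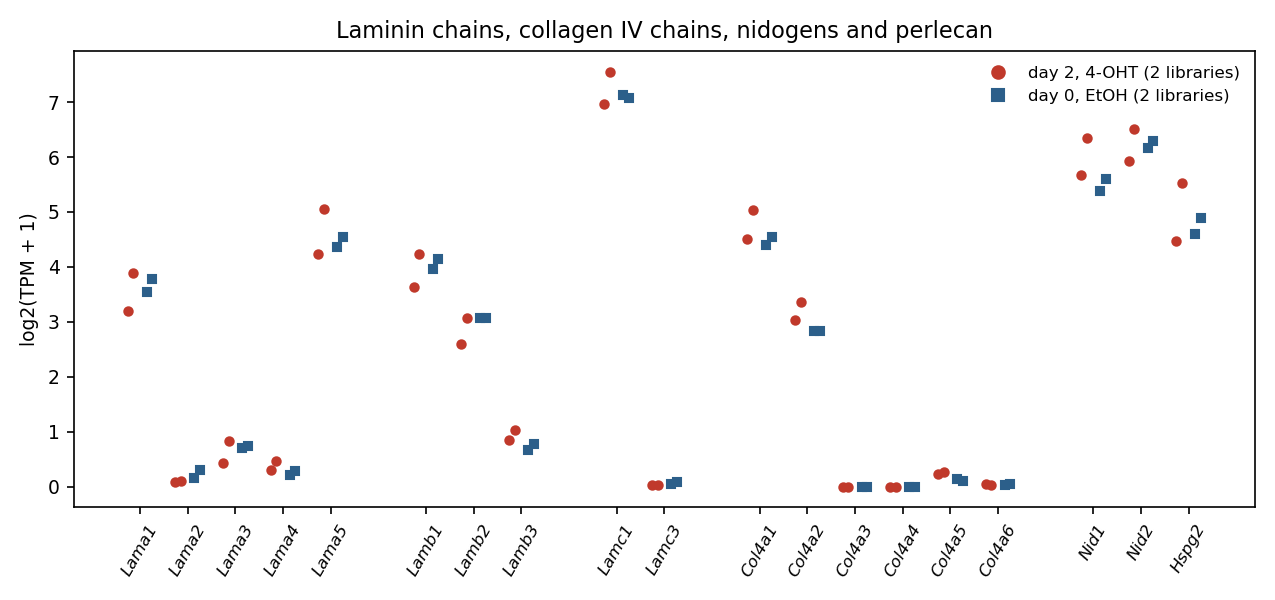
Level on the log2(TPM + 1) scale of laminin α, β and γ chain genes, the collagen IV chain genes, the nidogens and perlecan (Hspg2) in the 2 day 2 4-OHT libraries (circles) and the 2 day 0 EtOH libraries (squares). Lamc1 is the highest chain gene plotted in every library, Col4a1 and Col4a2 are the collagen IV chains expressed, and the 4-OHT pair spreads widely at Lama1, Lama5, Lamc1 and Hspg2.

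The collagen IV chain genes had the higher mean with 4-OHT, and neither passed. Col4a1 (ENSMUSG00000031502.12, chromosome 8, 11198423 to 11312826, minus strand) encodes the α1 chain and stood at 21.8 and 32.0 TPM with 4-OHT, against 20.0 and 22.3 TPM with EtOH. Its lower 4-OHT value lay inside the EtOH range. Col4a2 (ENSMUSG00000031503.14, chromosome 8, 11312805 to 11449287, plus strand) encodes the α2 chain and stood at 7.17 and 9.22 TPM with 4-OHT, against 6.16 and 6.12 TPM with EtOH, with no overlap. The log2 fold changes were 0.31 for Col4a1 (SE 0.21, 95% interval -0.20 to 0.82, limma adjusted p = 0.673) and 0.35 for Col4a2 (SE 0.19, -0.11 to 0.82, adjusted p = 0.592). Without 4-OHT replicate 1 both passed (0.58, adjusted p = 0.0193, and 0.52, adjusted p = 0.0361), and without 4-OHT replicate 2 neither did (0.04 and 0.19).

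Col4a1 and Col4a2 are a head-to-head pair with starts that overlap, so they share their promoter. The RefSeq windows (GRCm38.p6) from 250 bases before to 50 bases after each start are shown because the pair is transcribed from the same stretch. They are chr8:11312777-11313076 on the minus strand for Col4a1 and chr8:11312555-11312854 on the plus strand for Col4a2, and the capitals mark the 78 bases both windows hold (chr8:11312777-11312854), read on opposite strands.
Col4a1: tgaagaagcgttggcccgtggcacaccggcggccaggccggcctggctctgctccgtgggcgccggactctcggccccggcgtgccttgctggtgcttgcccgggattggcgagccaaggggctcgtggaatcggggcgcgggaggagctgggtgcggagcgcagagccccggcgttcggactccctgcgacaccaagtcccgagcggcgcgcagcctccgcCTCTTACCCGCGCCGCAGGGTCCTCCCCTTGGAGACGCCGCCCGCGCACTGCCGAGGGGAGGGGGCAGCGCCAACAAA
Col4a2: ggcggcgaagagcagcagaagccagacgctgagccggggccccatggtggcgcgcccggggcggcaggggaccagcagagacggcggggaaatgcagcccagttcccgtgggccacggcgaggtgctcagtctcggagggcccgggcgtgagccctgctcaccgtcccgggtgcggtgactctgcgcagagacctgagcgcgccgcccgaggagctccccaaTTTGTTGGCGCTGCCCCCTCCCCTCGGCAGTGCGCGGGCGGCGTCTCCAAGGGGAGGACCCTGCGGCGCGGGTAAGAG
The annotated starts lie so that the first 22 bases of each transcript overlap, and 73.1% of the shared stretch is G or C. The GC box GGGCGG, searched on both strands, occurs in both windows and in 35.7% of all promoter windows. CCAAT occurs in both as well, against 37.4% of all windows, and TATAAA, held by 13.6% of all windows, in neither.

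The chains of the pair kept a like proportion in every library. So did Lama1 and Lamb1, which lie on different chromosomes, with ratios from 0.713 to 0.767. The ratio of Col4a1 to Col4a2 in TPM was 3.04 and 3.47 in the 4-OHT libraries, against 3.24 and 3.64 in the EtOH libraries, and the groups overlapped. Their longest transcripts, of 6615 and 6450 nt, are close in length. The other collagen IV genes were near 0: Col4a3 and Col4a4 were listed at 0 in every library, and Col4a5 and Col4a6 lay under 1 TPM.

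Sparc encodes a matrix glycoprotein that binds collagen IV and is abundant in parietal endoderm. Sparc (ENSMUSG00000018593.14, chromosome 11, 55394500 to 55423183, minus strand) stood at 281 and 320.5 TPM with 4-OHT, against 270.1 and 279 TPM with EtOH. The groups did not overlap in the deposited values, but the lower 4-OHT value lay close to the higher EtOH value. The log2 fold change was 0.13 (SE 0.10, 95% interval -0.12 to 0.38, limma adjusted p = 0.724). It passed without 4-OHT replicate 1 (0.22, adjusted p = 0.0280) and was 0.04 without 4-OHT replicate 2 (adjusted p = 0.630).

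**Figure D3:**
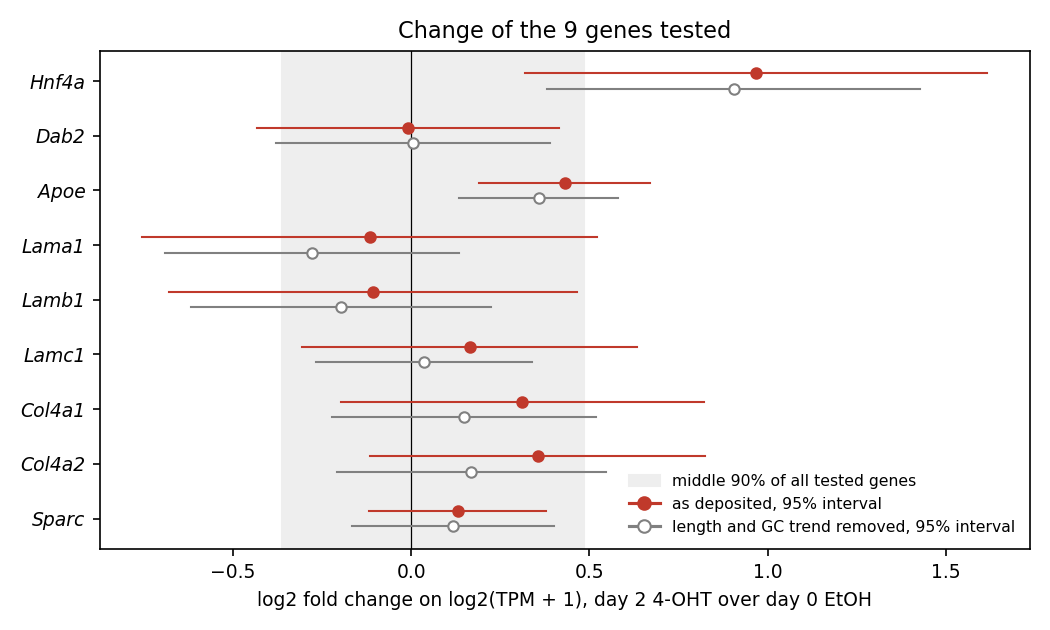
Log2 fold change on log2(TPM + 1), day 2 4-OHT over day 0 EtOH (n = 2 each), of the 9 genes tested, with limma's 95% interval, from the deposited values (filled) and after the trend of every library with transcript length and GC content was taken out (open); the grey band holds the middle 90% of all tested genes. Only Hnf4a lies beyond the band, the intervals of Hnf4a and Apoe are the ones that do not reach 0, and the matrix genes shift to the left once the trend is removed.

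The laminin and collagen IV genes have long transcripts, and the libraries differed by length. Tested genes were split by the length of their longest transcript into 10 bins of near-equal number, and the median log2 difference of 4-OHT replicate 2 minus replicate 1 ran from -0.15 in the shortest bin to 0.59 in the longest, against -0.04 to 0.15 for the EtOH pair. Lama1 (9526 nt) and Lamc1 (7622 nt) are in the longest bin, and their 4-OHT replicates differed by 0.68 and 0.59. Lamb1, Col4a1 and Col4a2 are in bin 9, whose median was 0.46, and differed by 0.60, 0.53 and 0.32. Hnf4a (4362 nt) differed by 0.67 beside a median of 0.31 for its bin, Apoe by -0.14 beside 0.02, and Sparc (2300 nt) by 0.19 beside 0.09.

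After the trend of every library with length and GC content was taken out, the log2 fold changes of the matrix genes were -0.28 for Lama1, -0.20 for Lamb1, 0.04 for Lamc1, 0.15 for Col4a1, 0.17 for Col4a2 and 0.12 for Sparc. The 4-OHT libraries then lay both above the EtOH pair for 3 of the 9 (Hnf4a, Apoe and Col4a2), against 25.0% of all genes, and both below for 1, Lama1, against 18.6%; the groups of Sparc, apart in the deposited values, overlapped. Hnf4a stood at 0.90 (SE 0.23, limma adjusted p = 0.185) and Apoe at 0.36 (SE 0.10, adjusted p = 0.215). None of the 9 passed, while 45 genes did over the whole table (0.375%).

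**Figure D4:**
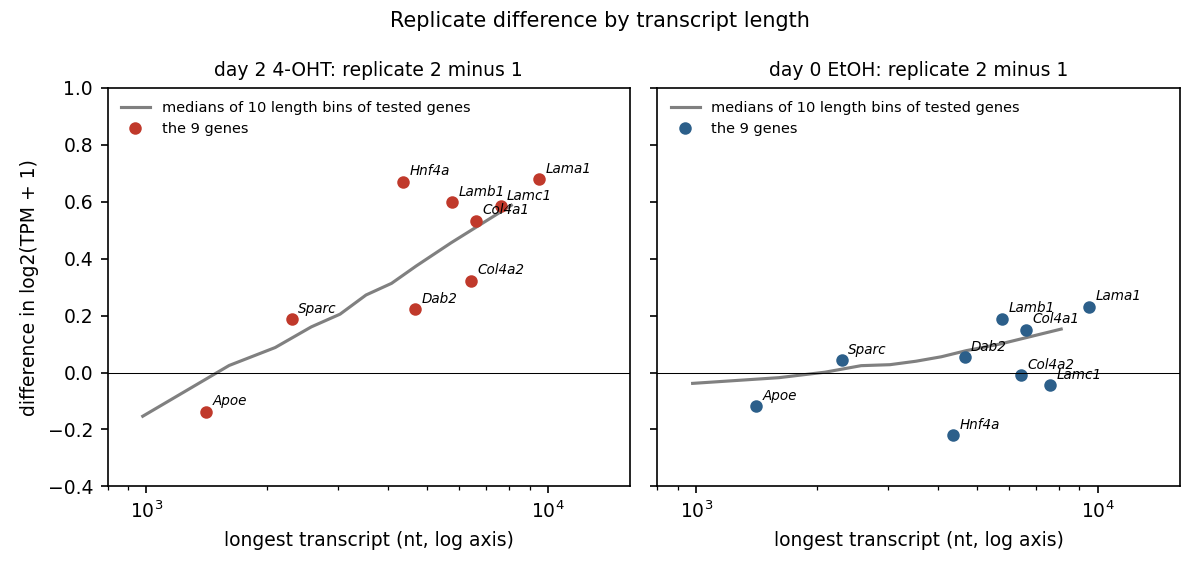
Difference in log2(TPM + 1) between replicate 2 and replicate 1 against the length of the longest transcript (log axis), for the day 2 4-OHT pair (left) and the day 0 EtOH pair (right). Points are the 9 genes and the grey line joins the medians of 10 length bins of all tested genes at their median length; the line climbs from -0.15 to 0.59 in the 4-OHT pair and from -0.04 to 0.15 in the EtOH pair.

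Other genes that build, fold or bind basement membrane gave no call either. Of 30 other basement membrane components, 15 were tested, none passed limma, and 1 had an unadjusted p under 0.05, in the higher direction. The 4-OHT libraries were both above the EtOH pair for 6 of the 15 and both below for 1, beside 23.1% and 19.4% of all genes tested. Their median log2 fold change was 0.20. Nid1, which encodes the laminin-binding linker nidogen-1, stood at 49.8 and 80.2 TPM with 4-OHT, against 40.8 and 47.4 TPM with EtOH (log2 fold change 0.51, SE 0.23, adjusted p = 0.518). Its relative Nid2 stood at 59.5 and 90.5 TPM with 4-OHT, against 70.7 and 77.5 TPM with EtOH (-0.01, SE 0.20). The fibulin gene Fbln1, the integrin ligand gene Npnt and the peroxidasin gene Pxdn, whose enzyme crosslinks collagen IV, had log2 fold changes of 0.40 (SE 0.16), 0.48 (SE 0.20) and 0.44 (SE 0.23). The list's summed level was 432 and 666 TPM with 4-OHT, against 445 and 490 TPM with EtOH, so the 4-OHT libraries lay on both sides of the EtOH pair. Without 4-OHT replicate 1, 10 of the 15 passed, and without 4-OHT replicate 2, 2 did, where 24.6% and 20.6% of all genes passed; the first count is above its background share and the second below it.

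Of 24 genes listed for folding, modification and export of collagen, 23 had an entry, 21 were tested and none passed. An unadjusted p under 0.05 was reached by 2 as higher and 1 as lower, and the median log2 fold change was 0.04. The 4-OHT libraries were both above the EtOH pair for 4 of the 21 and both below for 6, beside 23.1% and 19.4% of all genes tested. Serpinh1, the collagen chaperone HSP47, stood at 59.2 and 69.6 TPM with 4-OHT, against 47.0 and 49.9 TPM with EtOH (log2 fold change 0.40, SE 0.13, limma adjusted p = 0.373). Fkbp10, a collagen prolyl isomerase gene, stood at 10.6 and 12.8 TPM with 4-OHT, against 6.88 and 7.28 TPM with EtOH (0.65, SE 0.18, adjusted p = 0.325). Loxl2, a lysyl oxidase that crosslinks collagen IV, stood at 1.35 and 1.44 TPM with 4-OHT, against 2.18 and 2.26 TPM with EtOH (-0.43, SE 0.16, adjusted p = 0.446). P4hb, the β subunit of prolyl hydroxylase, had a log2 fold change of -0.24 (SE 0.11). With either 4-OHT library left out, 6 of the 21 passed.

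Of 16 laminin and collagen receptor genes, 10 were tested, none passed limma, and 1 had an unadjusted p under 0.05, higher. For 3 of the 10 both 4-OHT libraries were above the EtOH pair and for 1 both were below, beside 23.1% and 19.4% of all genes tested. Itgb4, the integrin β4 chain of hemidesmosomes, stood at 1.61 and 2.43 TPM with 4-OHT, against 1.05 and 1.07 TPM with EtOH (log2 fold change 0.54, SE 0.20, adjusted p = 0.430). The dystroglycan gene Dag1 had a log2 fold change of 0.37 (SE 0.24), the collagen receptor kinase gene Ddr1 0.32 (SE 0.16) and the laminin α5 receptor gene Bcam -0.21 (SE 0.13). Itga6 and Itgb1, whose chains pair as a laminin receptor, had 0.19 (SE 0.24) and -0.08 (SE 0.14). The list's median was 0.19, and 4 and 2 of the 10 passed without 4-OHT replicate 1 or 2.

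Defining markers of primitive endoderm were low in every library. The summed level of 10 such genes was 6.09 and 6.83 TPM with 4-OHT, against 6.98 and 6.63 TPM with EtOH, with overlap between the groups. Ttr was listed at 0 in every library, and 3 of the 10, Gata4, Sox17 and Sox7, were expressed enough to test. Gata4, a master regulator of the lineage, stood at 1.08 and 1.53 TPM with 4-OHT, against 0.835 and 0.973 TPM with EtOH (log2 fold change 0.27, SE 0.18, limma adjusted p = 0.669). Its partner Gata6 lay between 0.170 and 0.398 TPM with 4-OHT and between 0.248 and 0.332 TPM with EtOH. The endoderm regulator Sox17 stood at 1.62 and 1.40 TPM with 4-OHT, against 1.01 and 0.657 TPM with EtOH (0.46, SE 0.18, adjusted p = 0.455), while its relative Sox7 stood at 1.70 and 2.17 TPM with 4-OHT, against 2.73 and 2.56 TPM with EtOH (-0.31, SE 0.18, adjusted p = 0.613). Of these 3, Gata4 and Sox17 were above the EtOH pair in both 4-OHT libraries and Sox7 below it.

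Over the wider list of 30 other primitive, visceral and parietal endoderm genes, which holds these 10, 13 were tested, none passed, and 4 reached an unadjusted p under 0.05, all higher. The 4-OHT libraries were both above the EtOH pair for 6 of the 13 and both below for 2, beside 23.1% and 19.4% of all genes tested, and the median log2 fold change was 0.27. The summed level of the 30 was 159 and 158 TPM with 4-OHT, against 155 and 153 TPM with EtOH, with no overlap. Besides Sox17, the 4 were the proteoglycan gene Srgn (2.23 and 2.36 TPM with 4-OHT, against 1.15 and 1.30 TPM with EtOH; log2 fold change 0.57, SE 0.16, limma adjusted p = 0.339) and the simple-epithelium keratin genes Krt18 (0.49, SE 0.16) and Krt19 (0.67, SE 0.24). Krt18 stood at 13.4 and 14.5 TPM with 4-OHT, against 9.35 and 9.96 TPM with EtOH. Rhox5, the largest part of the list's sum, stood at 85.3 and 76.8 TPM with 4-OHT, against 92.3 and 91.9 TPM with EtOH. Rhox5 and Sox7 were the 2 tested genes below the EtOH pair in both 4-OHT libraries, so the sum does not speak for every gene of the list. Many of the genes on this list are also active in other epithelia or in stem cells, and 4 and 2 of the 13 passed without 4-OHT replicate 1 or 2.

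Markers of other cells that could make this matrix were measured too. Of 12 fibroblast markers, 3 were tested and none passed: Thy1 stood at 7.64 and 10.9 TPM with 4-OHT, against 6.41 and 5.43 TPM with EtOH (log2 fold change 0.56, SE 0.22, limma adjusted p = 0.470), and Col5a1 and Fbn1 had 0.31 (SE 0.17) and 0.21 (SE 0.27). Their unadjusted p was under 0.05 for 1, Thy1, which also passed when 4-OHT replicate 1 was left out. The list's summed level was 21.9 and 27.0 TPM with 4-OHT, against 18.0 and 17.1 TPM with EtOH. Postn and Twist2 were listed at 0 in every library, and Col1a1, Col1a2, Col3a1, Lum and Dcn lay under 1 TPM. Of 10 trophoblast markers, 6 were tested, none passed and none had an unadjusted p under 0.05, with Ascl2 (0.26, SE 0.18), Plac1 (0.22, SE 0.20), Eomes (0.16, SE 0.18) and Gata3 (-0.11, SE 0.17) the smallest in p; their summed level was 50.9 and 57.4 TPM with 4-OHT, against 50.8 and 52.3 TPM with EtOH.

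Embryonic stem cell markers were all tested, and none of the 11 passed limma on the deposited values. An unadjusted p under 0.05 was reached by 4 as higher and 1 as lower. Both 4-OHT libraries were above the EtOH pair for 7 of the 11 and below for 1, beside 23.1% and 19.4% of all genes tested. Dppa5a stood at 7089 and 5623 TPM with 4-OHT, against 4733 and 4612 TPM with EtOH (log2 fold change 0.43, SE 0.12, adjusted p = 0.330), and Tdgf1 had 0.26 (SE 0.09) and Pou5f1 0.22 (SE 0.08). Utf1 stood at 335 and 318 TPM with 4-OHT, against 397 and 373 TPM with EtOH (-0.24, SE 0.09). The summed level of the 11 was 12859 and 11594 TPM with 4-OHT, against 9986 and 9895 TPM with EtOH, with no overlap. Dppa5a was the largest part of this sum, so the sum does not speak for every gene of the list. Across the list the median was 0.16 on the log2 scale, equal to 2 decimals to that of the 9 endoderm and basement membrane genes. Without 4-OHT replicate 1, 8 of the 11 passed, and without 4-OHT replicate 2, 4 did. After removal of the length and GC trend, with all 4 libraries kept, 1 of the 11 passed, beside 0.375% of all genes. The part of cell composition in the values of Hnf4a and Apoe was not tested.

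**Figure D5:**
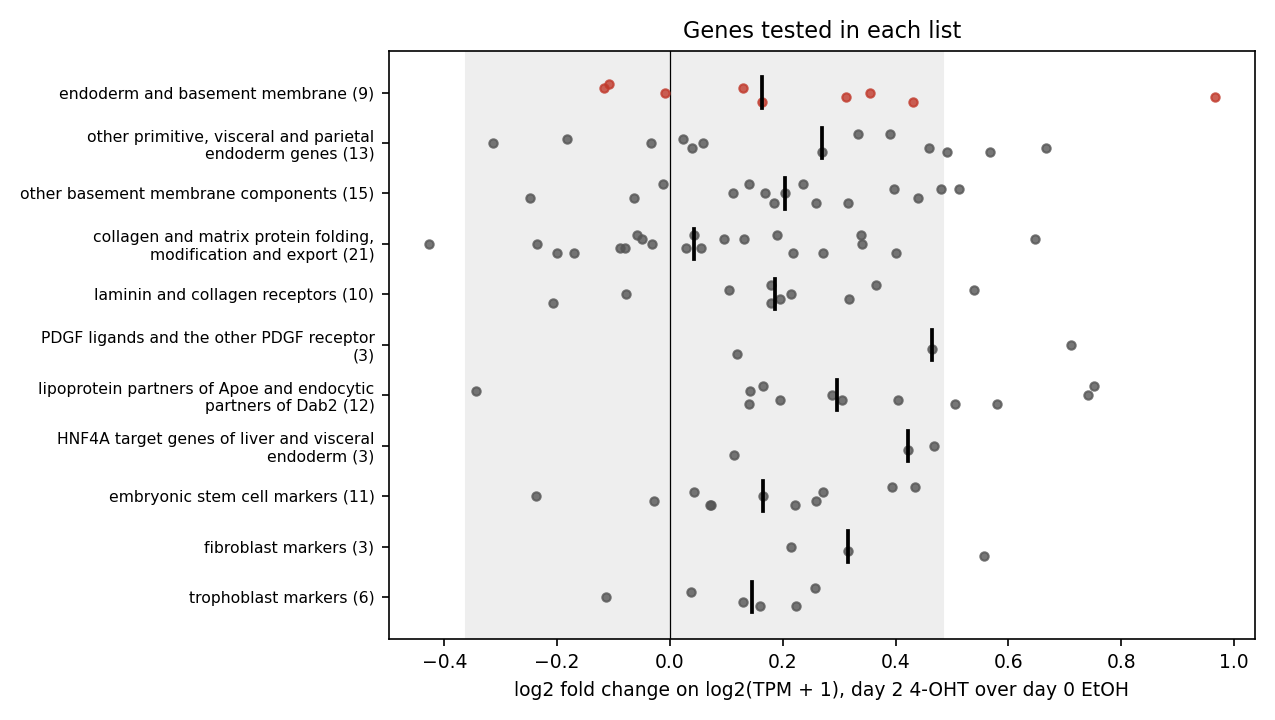
Log2 fold change on log2(TPM + 1), day 2 4-OHT over day 0 EtOH (n = 2 each), of every tested gene in each list (number tested in brackets); black bars are medians and the grey band holds the middle 90% of all tested genes. The median of the endoderm and basement membrane genes, 0.16, sits among those of the other lists, which run from 0.04 to 0.46.

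The genes with the most similar pattern over the 4 libraries were sought by the Euclidean distance between log2(TPM + 1) values, each minus the gene's mean, and the median of the same values over the 9 genes. That median profile was -0.11 and 0.28 in the 4-OHT libraries, against -0.09 and -0.08 in the EtOH libraries, so it was set by 4-OHT replicate 2. The nearest 5 genes were Fzd10 (distance 0.0099), Dbt (0.0183), Cd276 (0.0254), Map3k15 (0.0264) and Mta1 (0.0265). Their log2 fold changes lay between 0.15 and 0.19, and none passed. The choice by pattern largely sets these values, so they are a description only.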

How the data were processed

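The authors deposited TPM values. The submitters' processing notes name Trim Galore, Salmon and the build GRCm38 (mm10); versions, settings and annotation release were not given in the sources used here. This file also holds 2 value columns that match no sample used here, and they were not used.

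Values were tested as log2(TPM + 1) for the 12029 genes whose mean reached 1 TPM, with limma 3.58.1 in R 4.3.3 (two-sided, mean-variance trend, residual degrees of freedom of 2 and prior of 4.01). Benjamini-Hochberg adjustment ran over every tested gene at 0.05, and a fold change on this scale understates that of low genes. The fit was tested on simulated data with independent noise, equal in both groups and without a length trend. These libraries differ from that setting, so the simulation does not show how the fit behaves on them. Coordinates and longest transcripts come from GENCODE mouse release M21 (GRCm38), and promoter windows from RefSeq. A blastn 2.17.0 search at 95% identity over at least 50% of a transcript found no near-identical copy of the 10 genes. TPM keeps no depth, so no counting interval was computed. Named genes are the 10, Cbx2, up to 4 per list with the smallest p and the 5 nearest in pattern. Others named beside them (other laminin, collagen IV and nidogen genes, Gata6, Rhox5, Itga6, Itgb1, genes at 0) were chosen after their values were seen, as were the promoter motifs. The values of a few genes that these rules or families hold are not reported here. The 10 genes and the lists were chosen with earlier results of these data known. Alternatives covered pseudocount, filter, scaling, moderation, a replicate block, removal of length and GC trends (natural splines with 4 degrees of freedom per term) and leaving out each library.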

Additional observations from a re-analysis of the deposited data

How the results depend on the processing

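Of 142 log2 fold changes of the 9 genes recomputed under the alternatives, 123 kept their direction and their side of the threshold, 12 passed where the value from all 4 libraries did not, and 7 changed sign. The median over the 9 genes ranged from 0.12 to 0.21 across settings and from 0.04 to 0.36 with a library left out. The number of the 9 past the threshold was 0 in every setting that used all 4 libraries without a replicate block, and 0 to 6 with a library left out. Over the whole table, 5 genes passed, 0 without a filter on low values, 3 each with median of ratios scaling, quantile normalization and no mean-variance trend, 45 with the length and GC trend removed, and 34 to 2957 with a library left out.

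The sign changes concerned Dab2 at 0.0061 with the length and GC trend removed, with or without the block, and between -0.12 and 0.10 with a library left out, Lama1 between -0.46 and 0.22, Lamb1 between -0.41 and 0.19, and Lamc1 between -0.13 and 0.46. The cause was not tested.

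With the replicate number as a block, Hnf4a (limma adjusted p = 0.00165) and Apoe (0.0133) passed, 2 of the 9, where 474 of the 12029 genes tested passed. With the length and GC trend also removed the same 2 genes passed (limma adjusted p = 0.000286 for Hnf4a and 0.0421 for Apoe), where 647 of 12016 did. Among the lists, the block alone gave 3 of the 12 lipoprotein and endocytic genes, 2 of the 11 stem cell markers and 1 of the 3 PDGF genes. It also gave 1 of the 15 basement membrane components, and 0 of each other list. With the trend also removed, the first 3 of these counts were the same and no basement membrane component passed. That fit also gave 2 of the 13 endoderm genes and 1 of the 21 collagen folding genes, and 0 of each other list. The labels do not say what a shared replicate number stands for. The deviations of like-numbered libraries from their group means correlated across 12029 genes at 0.29; with 2 libraries a group the deviations mirror each other, so this is a single value and does not settle whether the numbers pair the libraries. A depth limit cannot be stated for TPM.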
